A study of Mus musculus with 6 samples.

Results

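Aortas of ApoE-/- mice that had received vitamin E were set against aortas of B6 control mice, to see which transcripts remained apart from the B6 control level under treatment. The comparison used 4 of the 6 arrays analysed here, 2 of vitamin E-treated ApoE-/- and 2 of B6 aortas, and took every probe set whose mean signal intensity reached 100 in at least 1 of these groups. A probe set is a group of short probes that detects 1 transcript, and its signal intensity is a brightness on a linear scale. This rule kept 17523 of 45101 probe sets. With 1 probe set per gene, the brightest over the 6 arrays, they stood for 10479 of the 18193 genes with a probe set of their own.

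B6 mice were non-transgenic C57BL/6J animals, and the ApoE-/- mice lacked apolipoprotein E on the same background. Both groups were 32 to 34 weeks old at dissection and ate an AIN-93-based chow that held fat and cholesterol, with no tocopherol acetate added. The treated group had tocopherol acetate, the form of vitamin E used, mixed into its diet at 2000 IU per kg for 7 months. No B6 mice on vitamin E were analysed here, so genotype and diet differ together between the groups and cannot be told apart. Untreated ApoE-/- aortas, also on 2 arrays, are given beside the comparison as a reference, and their comparisons share arrays with it. The vitamin E arrays have sample numbers from another range, and labels of another style, than the B6 and untreated arrays. Nothing used here says whether all arrays were processed together, so treatment and a possible batch cannot be told apart. RNA of 3 aortas was pooled on each array, and nothing used here says whether the pools of a group came from separate mice, so p-values measure the spread between pools.

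Apolipoprotein E is the ligand by which the liver clears remnant lipoproteins. Without it, cholesterol-rich particles stay in plasma and atherosclerotic lesions form in the aorta, with lipid-laden macrophages, lymphocytes and matrix in the intima. Vitamin E is a fat-soluble antioxidant that travels in lipoproteins and stops chain reactions of lipid peroxidation. An aorta taken from a mouse holds endothelium, a muscular media and an adventitia with fibroblasts and sympathetic nerves, and it lies against the thymus, lung, oesophagus, heart and brown fat.

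The arrays of the groups also differed in controls of the assay. The ratio of 3′ to 5′ signal, a measure of RNA quality and labelling, was 1.64 and 1.64 for actin on vitamin E arrays against 2.01 and 2.06 on B6 arrays, and 1.15 and 1.24 against 1.35 and 1.34 for Gapdh. The probe sets for bacterial transcripts with a poly-A tail, which follow the labelling, were 2.33- to 3.05-fold higher on B6 than on vitamin E arrays, whereas those for hybridization controls had ratios of 0.897 to 1.06. The probe set for 18S ribosomal RNA had a signal intensity of 200.2 and 184 on vitamin E arrays against 580.2 and 595 on B6 arrays. Untreated ApoE-/- arrays differed from B6 arrays as well. Their 18S signal was 88.0 and 101, and the poly-A controls were 2.82- to 3.85-fold higher on B6 than on untreated arrays. Hybridization controls had ratios of 0.969 to 1.20 there. Both ApoE-/- groups thus share this difference from B6 arrays. RNA quality, labelling and group cannot be told apart, and this limits every difference below, the small ones most. With 2 arrays in each group the smallest two-sided p of an exact permutation test is 0.333, and the adjusted p values owe their precision to limma's pooling of the spread over probe sets.

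Vitamin E-treated ApoE-/- aortas differed from B6 aortas in 7360 of the 17523 probe sets, or 42.0% (limma, adjusted p under 0.05, named a call from here on). Of these, 3902 (22.3%) were higher and 3458 (19.7%) lower. Most differences were small, since 3926 of the calls, or 53.3%, were under 1.5-fold. By at least 2-fold, 743 probe sets were higher and 400 lower, and by at least 4-fold, 151 were higher and 116 lower. Among probe sets with a mean of at least 100 in both groups, 39.3% were called. The median log2 fold change over all probe sets was 0.016.

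Apoe, on chromosome 7, gave 40.5 and 45.3 on the vitamin E arrays and 5209 and 5432 on the B6 arrays. It was 124-fold lower (log2 fold change -6.96, standard error 0.21, adjusted p = 1.3e-06) and the largest fall of all. Untreated ApoE-/- arrays gave 93.2 and 57.4. Both ApoE-/- groups therefore carried the label of their genotype, and their arrays stood far below those of B6 aortas.

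**Figure D1:**
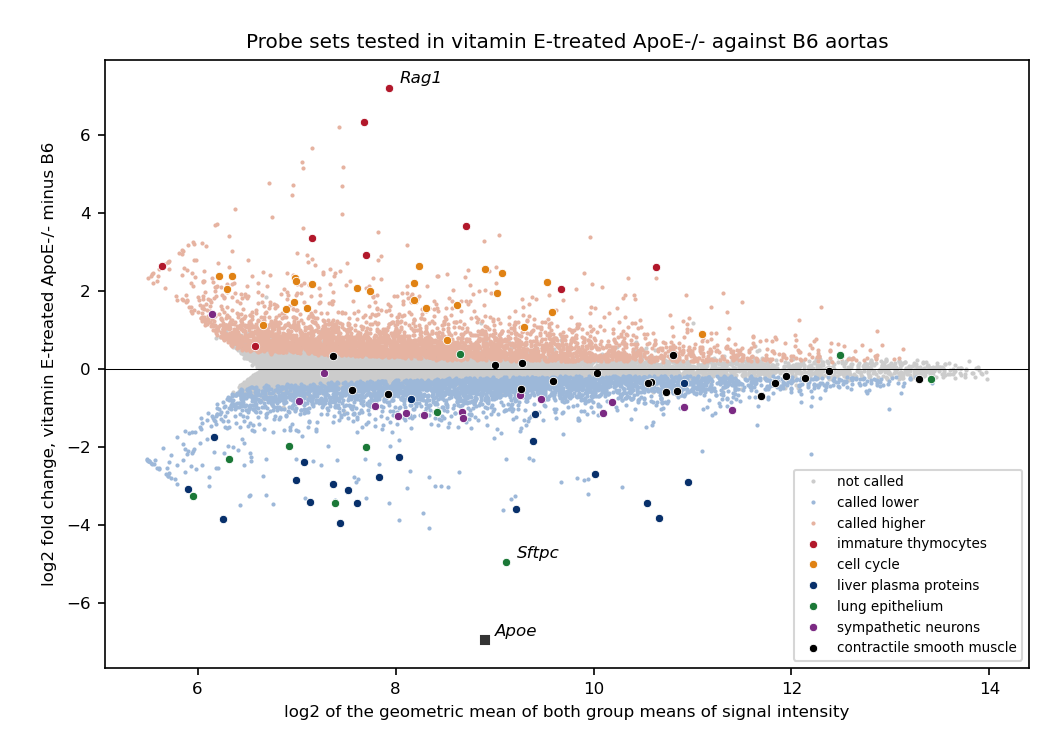
Log2 of the geometric mean of the group means of vitamin E-treated ApoE-/- and B6 aortas (horizontal axis) against the log2 fold change between them for the 17523 probe sets tested, with genes of 6 lists in colour. Thymocyte and cell cycle genes lie above 0, liver, lung and sympathetic genes mostly below it, and smooth muscle genes close to it.

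To order the differences, 43 lists of cell type and pathway genes were read, 645 genes tested in all. Over the 10479 genes, 21.4% were called higher and 22.2% lower than in B6 aortas, with a median log2 fold change of -0.0035. These shares are the background for the counts of higher and lower genes against B6 aortas in the main fit. They are not the background for counts from fits that lack an array or use another scaling. There the share over all genes differs and was not counted. With arrays centred on their median over all probe sets, for example, 31.3% of the called probe sets were higher, against 53.0% in the main fit. The share of all genes whose groups did not overlap was not counted, so statements on overlap have no such background. In the endothelial list, for example, both vitamin E arrays lay above both B6 arrays in 8 of 22 genes and below them in 10. In untreated ApoE-/- against B6 aortas, 20.8% of the genes were called higher and 21.1% lower. Between vitamin E-treated and untreated ApoE-/- aortas the shares were 8.40% higher and 7.59% lower.

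**Figure D2:**
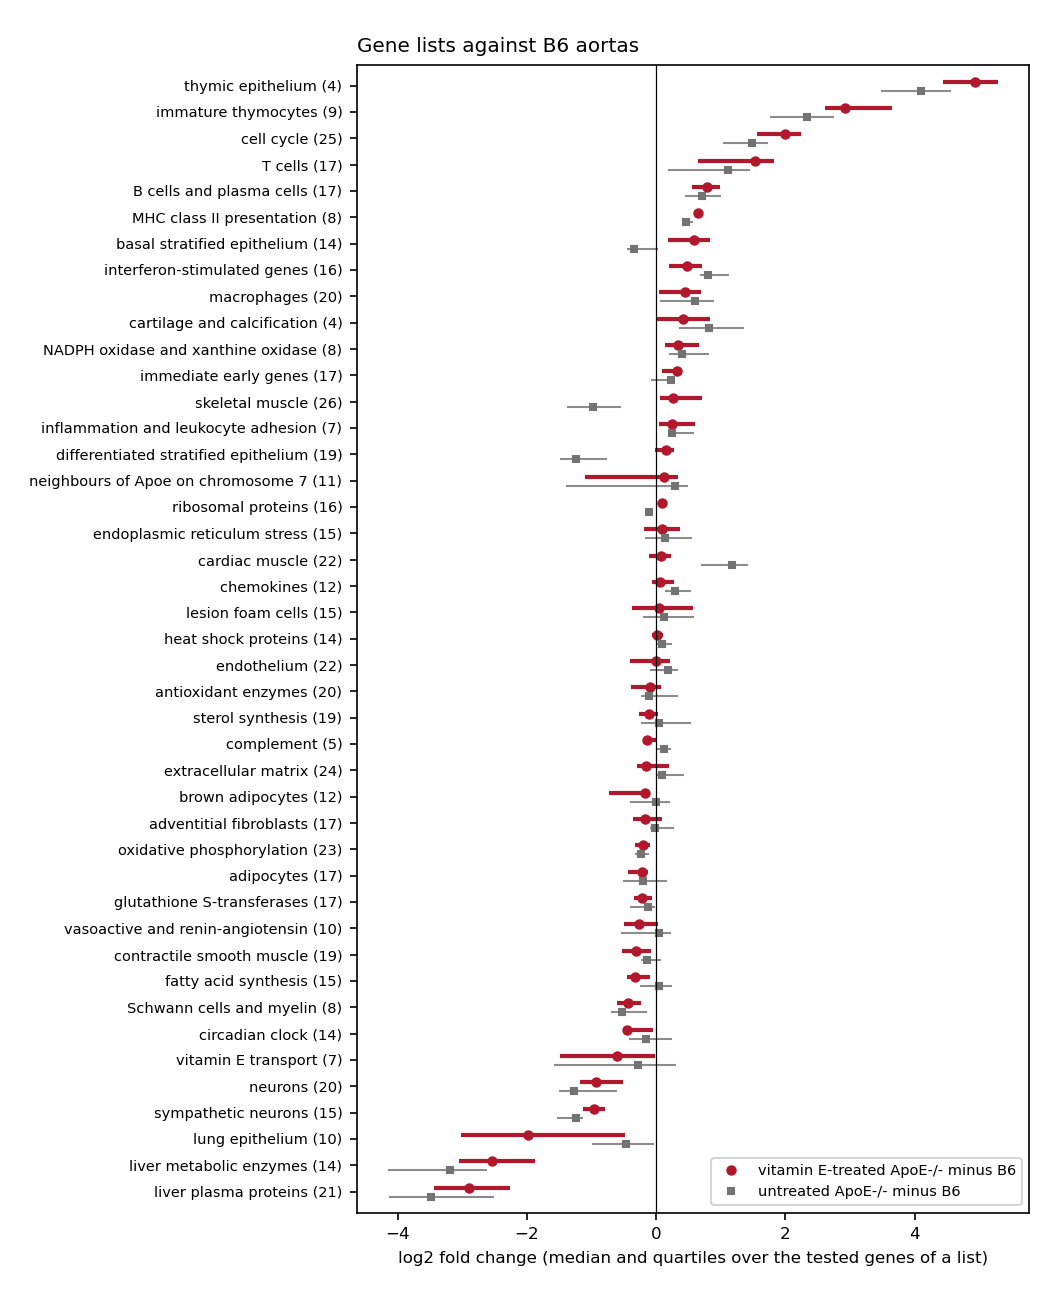
Median log2 fold change (marker) and quartiles (line) of the genes tested in each of the 43 lists, with their number in brackets, for vitamin E-treated ApoE-/- minus B6 aortas (red circles) and untreated ApoE-/- minus B6 aortas (grey squares). Thymic epithelium (4.94), immature thymocytes (2.93) and cell cycle genes (1.99) lie farthest above 0, and liver plasma proteins (-2.89), liver metabolic enzymes (-2.54) and lung epithelium (-1.98) farthest below it.

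The largest rises of vitamin E-treated ApoE-/- over B6 aortas were in genes of T cell development. Immature T cells assemble their receptor genes in the thymus, guided by chemokines and peptides of its epithelium. Rag1, on chromosome 2, encodes the recombinase that cuts receptor genes. It gave 2940 and 3020 on the vitamin E arrays and 10.4 and 3.14 on the B6 arrays. Since both B6 values lie under the floor of 20, to which low signal intensities were set, its rise was at least 149-fold (adjusted p = 1.7e-08). Untreated ApoE-/- arrays gave 1887 and 2060. Rag2, its partner gene, had 139 and 111 against 4.27 and 5.51, at least 6.19-fold. Dntt, the polymerase that adds bases at receptor joints, had 1873 and 1832 against 26.7 and 18.7 (log2 fold change 6.32, standard error 0.48, adjusted p = 9.8e-05). Its untreated arrays differed from each other on this probe set, with 312 and 1075, but gave 905 and 855 on a second one. On both probe sets the vitamin E arrays lay above the untreated arrays.

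All 9 genes of the immature thymocyte list were above the B6 level (median log2 fold change 2.93, against 2.34 in untreated ApoE-/- aortas). Of these, 6 reached the mean of 100 only through the vitamin E group. Ccr9, a receptor that thymocytes use to find Ccl25, had 1583 and 1406 against 121 and 115 (12.6-fold, adjusted p = 6.9e-07). Satb1, a chromatin organiser of thymocytes, had 3773 and 4052 against 626 and 652 (6.12-fold). Bcl11b, the factor that commits cells to the T lineage, had 1642 and 1697 against 416 and 384 (4.17-fold, adjusted p = 7.9e-06). These 3 were the genes that reached 100 in both groups. Arpp21, a phosphoprotein of early thymocytes, rose 10.3-fold and Themis, which tunes thymocyte selection, 7.60-fold. Tox was the smallest rise of the list, with 111 and 124 against 83.3 and 72.2 (1.51-fold, adjusted p = 0.033).

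Genes of the thymic epithelium stood higher still in fold, and all 4 tested reached 100 only through the vitamin E group. Prss16, a protease that prepares self peptides for CD4 T cells, had 1010.1 and 1122 against 27.8 and 31.2 (36.2-fold, adjusted p = 6.0e-07). Ccl25, the ligand of Ccr9, had 887 and 889.7 against 41.0 and 28.7 (25.9-fold). Psmb11, the proteasome subunit found in cortical thymic epithelium, had 243 and 278 against 0.637 and 1.55, a log2 fold change of at least 3.70. Tbata, a gene of thymic stroma and testis, had 1133 and 914 against 2.46 and 4.12, at least 50.9-fold higher. For these 4 genes, every B6 array lay below both vitamin E arrays, a count without a background over all genes and in genes that the filter kept only through the vitamin E group. Summed over the list, the signal intensity was 3272 and 3204 on the vitamin E arrays, 71.9 and 65.5 on the B6 arrays and 1954 and 1860 on the untreated ApoE-/- arrays. Vitamin E arrays lay above the untreated ones for all 4 genes, and each of these differences was called.

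Genes of T cells in general were higher as well, with 14 of 17 called higher and 0 lower (median 1.54), of which 3 reached 100 only through the vitamin E group. Cd4, the coreceptor of helper cells, had 597 and 665 against 18.5 and 79.1 (15.8-fold, adjusted p = 0.0012), and the B6 arrays stood far apart from each other. Cd8a, the coreceptor of cytotoxic cells, had 1143 and 1205 against 209 and 204 (5.68-fold, adjusted p = 1.3e-06). Lat, which links the T cell receptor to its signal chain, had 1637 and 1651 against 386 and 423 (4.07-fold). Cd3d, a chain of the receptor complex, had 1559 and 1712 against 619.8 and 593 (2.69-fold), and Sh2d1a, an adaptor of T and NK cells, rose 6.35-fold. The remaining 3 genes were not called, and some rises were small. Cd2, an adhesion molecule of all T cells, rose 1.48-fold. Ccr7, which leads naive cells into lymph nodes, had 226 and 224 against 194 and 209 (adjusted p = 0.33), and Il7r, the receptor of a survival cytokine, had 481 and 583 against 535 and 527 (adjusted p = 0.97), with overlapping groups. Zap70, a kinase of the receptor, had 196 and 205 against 327 and 234 on its brightest probe set (adjusted p = 0.051), whereas 2 of its 3 probe sets were called higher.

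The thymic lists and the T cell list rose together, and their part in one another was not tested. Summed signal intensities of the immature thymocyte list were 12983 and 13357 on the vitamin E arrays, 1432 and 1350 on the B6 arrays and 6715 and 7828 on the untreated arrays. Of the thymic genes, Rag1, Rag2, Tbata and Psmb11 lay under 20 on both B6 arrays. In RNA of whole aortas, more cells of a type and more RNA per cell cannot be told apart, and likewise for fewer cells and less RNA.

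Genes of cell division rose with them. All 25 cell cycle genes tested were higher than in B6 aortas (median 1.99, against 1.48 in untreated ApoE-/- aortas), and 11 of the 25 reached 100 only through the vitamin E group. Birc5, which encodes the survival and spindle protein survivin, had 744 and 754 against 138 and 106 (6.21-fold, adjusted p = 1.7e-05). Top2a, the topoisomerase that untangles chromosomes, had 1128 and 1197 against 210.0 and 182 (5.94-fold, adjusted p = 2.8e-06). Mki67, the gene of the proliferation antigen Ki-67, had 1623 and 1581 against 345 and 339.6 (4.68-fold). Pcna, the sliding clamp of DNA replication, had 2817 and 3129.6 against 1646 and 1555 (1.86-fold), the weakest but for Mcm2. Mcm2, a subunit of the replicative helicase, had 341 and 633 against 296 and 259 (adjusted p = 0.048). Vitamin E arrays were higher than untreated ones in 14 of the 25 genes and lower in 0, where Birc5 differed most (log2 fold change 1.01, adjusted p = 0.0035). Summed over the list, the signal intensity was 16620 and 17116 on vitamin E arrays, 5531 and 5296 on B6 arrays and 12524 and 12100 on untreated arrays.

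Since these genes moved together, their promoters were read from RefSeq (mouse GRCm38.p6), where 22 of the 25 were found. The 250 bases before each gene's start were searched on both strands, allowing no mismatch, for CCAAT, the box bound by NF-Y, for TTTGAA, the core of the cell cycle homology region of genes expressed late in the cycle, and for GCGGGAA, an E2F site. CCAAT was found in 19 of the 22 promoters (86.4%), against 34.5% of all 27025 promoters. Its share was 66.7% for thymic epithelium (2 of 3), 54.5% for liver metabolic enzymes (6 of 11) and 45.5% for sympathetic neurons (5 of 11). For liver plasma proteins it was 38.9% (7 of 18) and for immature thymocytes 25% (2 of 8). TTTGAA was found in 8 (36.4%), against 16.3%, and GCGGGAA in 0 of 22, against 3.84%. The share of TTTGAA was not particular to this list. It was 37.5% for immature thymocytes (3 of 8), 33.3% for thymic epithelium (1 of 3) and 27.3% for liver metabolic enzymes (3 of 11). For sympathetic neurons it was 9.09% (1 of 11) and for liver plasma proteins 5.56% (1 of 18). A match is a description of the sequence and not a site that was shown to be bound. The last 150 bases before the start are shown for 4 mitotic genes of the list, in the direction of transcription, with CCAAT or its reverse complement and TTTGAA or its reverse complement in capitals. Ccnb2 and Cdk1 encode a cyclin and the kinase it activates at mitosis, and Cdc20 activates the complex that ends it. The windows, all on the minus strand, are chr9:70421555-70421704 for Ccnb2, chr11:99024190-99024339 for Top2a, chr10:69352913-69353062 for Cdk1 and chr4:118437344-118437493 for Cdc20.
Ccnb2: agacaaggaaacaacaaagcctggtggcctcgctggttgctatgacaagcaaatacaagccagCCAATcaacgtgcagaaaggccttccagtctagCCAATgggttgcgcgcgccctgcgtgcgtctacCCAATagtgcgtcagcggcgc
Top2a: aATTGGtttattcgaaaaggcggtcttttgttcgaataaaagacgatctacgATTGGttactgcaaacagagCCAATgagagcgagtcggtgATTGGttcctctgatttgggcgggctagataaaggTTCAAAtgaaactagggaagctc
Cdk1: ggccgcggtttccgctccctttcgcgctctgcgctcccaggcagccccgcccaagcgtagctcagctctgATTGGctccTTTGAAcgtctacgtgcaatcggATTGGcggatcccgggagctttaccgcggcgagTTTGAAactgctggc
Cdc20: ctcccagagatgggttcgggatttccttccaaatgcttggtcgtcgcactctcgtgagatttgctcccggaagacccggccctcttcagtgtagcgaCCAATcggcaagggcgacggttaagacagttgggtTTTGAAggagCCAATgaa
Ccnb2 had 418 and 438 on vitamin E arrays against 113 and 103 on B6 arrays (3.97-fold). Cdk1 had 386 and 400.2 against 123 and 71.2 (4.20-fold), and Cdc20 had 1077 and 971 against 265 and 266 (3.85-fold). The groups did not overlap for any of these 3 genes, a count without a background over all genes.

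**Figure D3:**
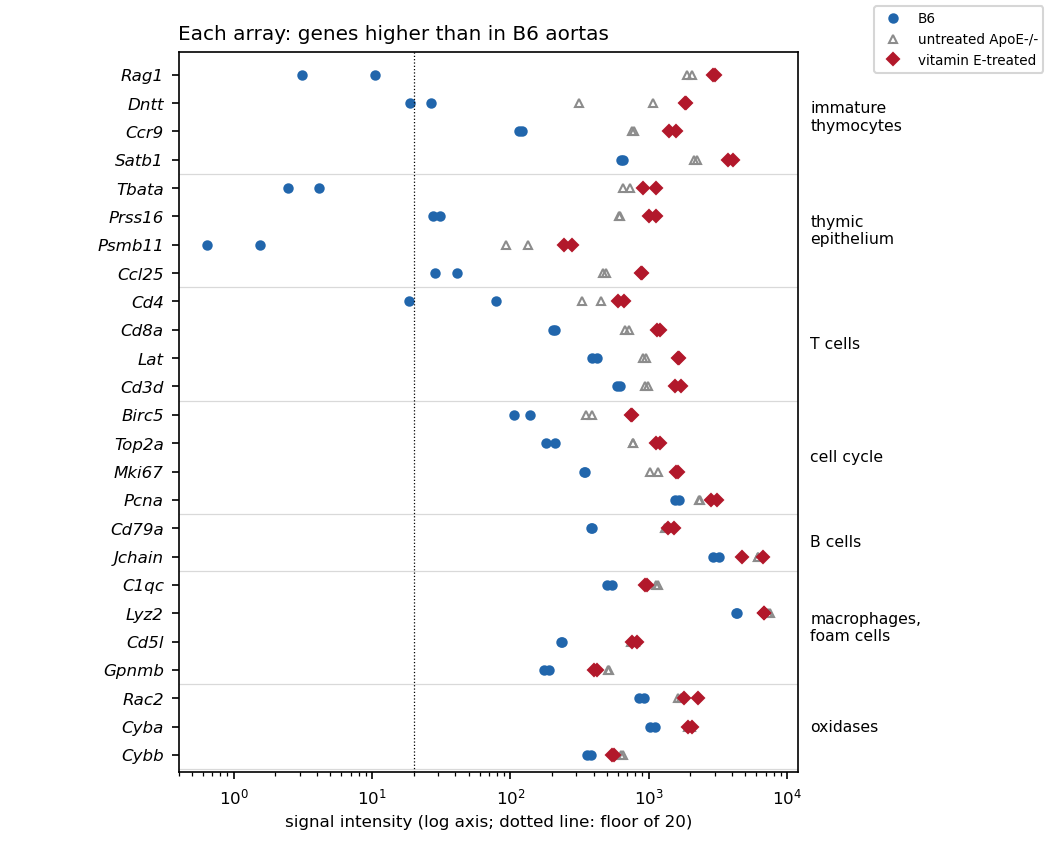
Signal intensity of each array (log axis) for genes that were higher in vitamin E-treated ApoE-/- (red diamonds) than in B6 aortas (blue circles), with untreated ApoE-/- aortas as open triangles and the floor of 20 as a dotted line. Genes of immature thymocytes and thymic epithelium are farther apart between the groups than macrophage, foam cell and B cell genes. Among cell division genes, Pcna is apart by less than Cd79a.

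Among the 15 largest rises were also genes outside these lists. Myb, a factor of immature blood cells, had 1443 and 1536 against 146 and 159 (9.79-fold, adjusted p = 7.9e-07). On its brighter probe set Pik3cd, a lipid kinase of leukocytes, had 1613 and 1871 against 159 and 159.5 (10.9-fold). Untreated arrays were higher still there, with 3462 and 4062. Its other probe set rose by less (log2 fold change 0.85), with 398 and 423 on vitamin E arrays and 378 and 341 on untreated arrays. Fen1, a nuclease of DNA replication, had 3064 and 3373 against 342 and 275 (10.5-fold) on its brighter probe set, with 5466 and 3365 on untreated arrays. The other probe set of Fen1 rose by less (log2 fold change 1.28), with 293 and 313 on vitamin E arrays and 259 and 210 on untreated arrays. Uhrf1, which copies DNA methylation after replication, rose 7.44-fold, Cdca7, a chromatin factor of dividing cells, 6.88-fold, and Crip3, a LIM protein of the thymus, 6.91-fold. Gzma, a granule protease of cytotoxic cells, rose 6.70-fold. Ctse, an endosomal protease, rose 6.58-fold on its brighter probe set and less on its other one (log2 fold change 0.63). Nrip2 rose 6.54-fold, with vitamin E arrays at 638 and 310.2. Pth, the gene of parathyroid hormone, had 215 and 250.2 on vitamin E arrays against 25.7 and 31.6 on B6 arrays (8.15-fold, adjusted p = 7.5e-05) and 25.4 and 15.7 on untreated arrays. In Pth, unlike the other largest rises, the untreated arrays lay at the B6 level or under it. Spo11 and H2-Q2, both under 20 on the B6 arrays, were at least 6.72-fold and 6.42-fold higher.

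B cell and plasma cell genes were higher in 15 of 17 cases and lower in 0 (median 0.79, and 0.71 in untreated aortas). Cd79a, a chain of the B cell receptor complex, had 1379 and 1514 against 384 and 389 (3.74-fold, adjusted p = 3.3e-06), close to the 1328 and 1321 of untreated aortas. Jchain, which joins secreted IgM and IgA, had 6713 and 4729 against 2913 and 3227 (1.84-fold), and Fcer2a, the low-affinity IgE receptor, rose 2.17-fold. Ighm, the heavy chain of IgM, had 8727 and 12866 against 8940.3 and 9053 (adjusted p = 0.28), so its groups overlapped on the brightest probe set, while 6 of its 7 probe sets were called higher. All 8 genes of MHC class II presentation were higher (median 0.65). The invariant chain gene Cd74 had 8663 and 10446 against 6265 and 6243 (1.52-fold), and H2-Aa, H2-Ab1 and H2-Ob rose 1.52-, 1.66- and 1.86-fold. No gene of this list was called between treated and untreated aortas.

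Macrophage genes were higher in 12 of 20 cases and lower in 1 (median 0.45, against 0.61 in untreated aortas). C1qc, a chain of the complement starter C1q made by macrophages, had 943 and 968 against 546 and 496 (1.84-fold, adjusted p = 1.3e-04). Lyz2, the lysozyme of macrophages and neutrophils, had 6773 and 6871 against 4317 and 4253 (1.59-fold), and Cx3cr1, a chemokine receptor of monocytes, rose 1.92-fold. Csf1r, the growth factor receptor that macrophages depend on, had 3219 and 3606 against 3294 and 3269 on its brightest probe set (adjusted p = 0.58), and its other 2 probe sets were called higher. Cd163, a haemoglobin scavenger receptor of resident macrophages, was lower, with 213 and 137 against 246 and 296 (1.58-fold, adjusted p = 0.043). Summed signal intensities of the macrophage list were 21863 and 22225 on the vitamin E arrays, 16407 and 16212 on the B6 arrays and 24564 and 24503 on the untreated arrays.

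Genes of lesion foam cells were split, with 5 of 15 higher and 5 lower (median 0.04). Cd5l, a secreted protein of macrophages that take up lipid, had 762 and 816 against 237 and 233 (3.35-fold, adjusted p = 8.9e-06), level with the 746 and 799 of untreated aortas. Gpnmb, a lysosomal membrane protein, had 402 and 421 against 174 and 192 (2.25-fold). The cholesterol exporter Abcg1 rose 1.89-fold, while the exporter Abca1 was 1.18-fold lower. Lpl, lipoprotein lipase, had 8571 and 10817 against 12279.8 and 12670.4 (1.30-fold lower, adjusted p = 0.034), and Fabp5, a fatty acid carrier, had 10697 and 11762 against 10679 and 11017 (adjusted p = 0.65), with its second probe set called higher. Lpl and Fabp5 are also genes of fat and epithelium. Without B6 replicate 1 or 2, 3 or 1 foam cell genes were lower.

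Interferon-stimulated genes were higher in 10 of 16 cases and lower in 0 (median 0.48, against 0.80 in untreated aortas). Irf7, the factor that amplifies interferon production, had 309 and 497 against 143 and 139.7 (2.78-fold, adjusted p = 0.0019), and Zbp1, a sensor of nucleic acids, rose 1.96-fold. Rtp4 and Rsad2, antiviral genes, had 699.6 and 645 against 633 and 566 and 835 and 948 against 881 and 760.4, and neither was called. Vitamin E arrays lay under untreated arrays in 6 of the 16 genes, among them Ifit3, with 409 and 363 on vitamin E and 565 and 612 on untreated arrays (log2 fold change -0.61, adjusted p = 0.0069).

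Of 12 chemokine genes, 3 were higher and 2 lower (median 0.06), shares near those over all genes. Cxcl10, an interferon-induced attractant of T cells, had 151 and 158 against 60.7 and 94.4 (2.04-fold, adjusted p = 0.0074), and Cxcl1, an attractant of neutrophils, rose 1.83-fold. Ccl8, a monocyte attractant, had 257 and 346 against 403 and 403 and was 1.35-fold lower, although untreated arrays were higher, with 557 and 569. Cxcl12 and Ccl5, attractants of lymphocytes, were not called (adjusted p = 0.50 and 0.87), though a second probe set of Cxcl12 was called lower. Without either B6 array or either untreated array, 0 chemokines were lower, and without B6 replicate 2 or vitamin E replicate 2, 1 was higher. Of 7 genes of inflammation and leukocyte adhesion, 3 were higher and 0 lower (median 0.25). These were Vcam1, an adhesion molecule of activated endothelium, with 996 and 642 against 407 and 463 (1.84-fold), Saa3, an acute phase protein (2.22-fold, B6 arrays at 46.0 and 107), and Cd44, a hyaluronan receptor (1.19-fold). Without B6 replicate 1, none of the 3 was called. Among 5 complement genes, 1 was higher and 1 lower, shares near those over all genes. Properdin (Cfp) was higher by 1.70-fold, and the C1 inhibitor gene Serping1 was lower, with 1694 and 1719 against 2131 and 2198 (1.27-fold). Cfb was not called (adjusted p = 0.97), and the list median of -0.14 turned to 0.03 without vitamin E replicate 2.

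Genes of the superoxide-forming NADPH oxidase of phagocytes were higher. Of 8 genes of NADPH oxidase and xanthine oxidase, 5 were higher and 1 lower (median 0.33, against 0.41 in untreated aortas). Cyba, the membrane subunit p22phox, had 1908 and 2062 against 1111 and 1021 (1.86-fold, adjusted p = 1.2e-04) and 2028 and 1938 on untreated arrays. Cybb, the catalytic subunit of phagocytes, had 547 and 562 against 356 and 380.3 (1.51-fold). Rac2, its activator in blood cells, had 1789 and 2271 against 924 and 844 (2.28-fold), and the ubiquitous Rac1 rose 1.18-fold. Nox4, the catalytic subunit of vascular cells, was lower, with 151 and 147 against 276 and 269.8 (1.83-fold, adjusted p = 0.0013). No gene of the list but Nox4 was called between treated and untreated ApoE-/- aortas, and Nox4 was lower in treated ones (222 and 188 on untreated arrays). Macrophage and lymphocyte markers moved with the phagocyte subunits, and their part was not tested. Without any 1 of the B6 or untreated arrays, 3 of the 8 genes were higher.

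Genes of the liver showed the broadest falls. All 21 genes of plasma proteins made by hepatocytes were lower than in B6 aortas (median -2.89), and 11 of them reached 100 only through the B6 group. The other 10 were lower as well. Alb, serum albumin, had 379 and 485 against 6097 and 6107 (14.2-fold, adjusted p = 1.5e-06), and 243 and 273 on untreated arrays. Ambp, the precursor of an inhibitor of inflammation-linked proteases, had 45.2 and 42.9 against 652 and 710.3 (15.5-fold). Ttr, which carries thyroid hormone and retinol, had 752 and 706 against 5219 and 5603 (7.43-fold, adjusted p = 6.9e-07). Apoa1, the main protein of high density lipoprotein, had 171 and 171 against 2076 and 2039 (12.0-fold). Serpina1c, an antitrypsin, fell 10.9-fold, Hpx, a haem carrier, 10.9-fold, and Mbl2, a lectin of complement, 10.7-fold. Fgb, the beta chain of fibrinogen, had 19.4 and 4.93 against 286 and 295, at least 14.5-fold lower.

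The 14 liver metabolic enzymes were all lower too (median -2.54), with 8 of them at 100 only in B6 aortas. Cyp2e1, an ethanol-oxidising cytochrome, had 911 and 1224 against 4363 and 4676 (4.28-fold, adjusted p = 6.4e-05). Fabp1, the fatty acid carrier of hepatocytes, had 349.7 and 250.5 against 2083 and 2339 (7.46-fold). Cps1, the entry enzyme of the urea cycle, fell 10.4-fold, and Akr1c6, a steroid reductase, 11.1-fold. Rgn, Gnmt, Slc27a5 and Rdh7, further liver genes among the 15 largest falls, had log2 fold changes of -3.32, -3.31, -3.26 and -3.24. Ugt2b5, Cyp2d26 and Agt, the gene of angiotensinogen, were under 20 on both vitamin E arrays and at least 9.43-, 7.72- and 6.71-fold lower.

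Treated aortas mostly lay above untreated ones in these lists. Of the 21 plasma protein genes, 12 were higher and 1 lower under vitamin E than without it, and of the 14 enzymes 7 were higher and 1 lower. Cyp3a11, a drug-metabolising cytochrome, had 105 and 123 on vitamin E arrays, 24.8 and 26.1 on untreated arrays and 758 and 640.0 on B6 arrays. Summed over the plasma protein list, the signal intensity was 5446 and 5689 on vitamin E arrays, 4537 and 4714 on untreated arrays and 31000 and 31307 on B6 arrays. On both vitamin E arrays, every gene of these 2 lists lay below both B6 arrays, a count without a background over all genes. Of these genes, 11 of the 21 and 8 of the 14 had passed the filter only through the B6 group, where they are high.

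Among promoters of the plasma protein genes, 18 of 21 were found, and GTTAAT, a half-site of HNF1, was present on either strand in 4 of them (22.2%), against 6.52% of all 27025 promoters. The enzymes had it in 1 of 11 (9.09%). In the lists outside the liver it was found in 1 of 8 immature thymocyte promoters (12.5%) and 2 of 22 cell cycle promoters (9.09%). Sympathetic neurons had it in 1 of 11 (9.09%) and thymic epithelium in 0 of 3. HNF1 is a transcription factor of hepatocytes, and its half-site is shown in capitals in the last 150 bases before the start of Alb (chr5:90460720-90460869, plus strand) and Fgb (chr3:83049864-83050013, minus strand), where it stands on the reverse strand.
Alb: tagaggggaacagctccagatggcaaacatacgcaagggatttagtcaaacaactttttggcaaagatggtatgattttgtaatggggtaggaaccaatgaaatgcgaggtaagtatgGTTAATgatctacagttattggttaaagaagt
Fgb: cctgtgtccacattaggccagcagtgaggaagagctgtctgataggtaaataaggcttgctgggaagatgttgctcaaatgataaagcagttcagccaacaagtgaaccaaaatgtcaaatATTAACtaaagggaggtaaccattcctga

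Genes of lung epithelium also fell, but not all of them. Of 10 tested, 8 were lower and 2 higher (median -1.98), and 5 reached 100 only in B6 aortas. Among the 5 genes with a mean of at least 100 in both groups, 3 were lower and 2 higher, and the median was -0.27. Sftpc, surfactant protein C of alveolar type II cells, had 95.6 and 103 against 3074 and 3132 (31.3-fold, log2 fold change -4.97, standard error 0.07, adjusted p = 5.4e-08). Its untreated arrays lay between, with 1402 and 1427. Ager, a receptor of alveolar type I cells, had 58.6 and 43.3 against 555 and 538 (10.8-fold) and 223 and 216 on untreated arrays. Sftpb, the surfactant protein B gene, had 57.6 and 64.4 against 225 and 255, and Cxcl15, a lung chemokine, was at least 9.62-fold lower.

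Scgb1a1, uteroglobin of club cells, had 9969 and 9903 against 11683 and 12238 (1.20-fold lower, adjusted p = 0.024), and Scgb3a2 had 6256 and 6715 against 4865 and 5277 (1.28-fold higher, adjusted p = 0.0080), a call that was lost without B6 replicate 1. Of the 10 lung genes, 7 were lower and 0 higher under vitamin E than without it. Alveolar genes and liver genes were both lower on vitamin E than on B6 arrays, but the lists differed in untreated ApoE-/- aortas. There the median log2 fold change against B6 was -0.46 for lung epithelium, -3.48 for plasma proteins and -3.19 for liver enzymes. How much lung or liver RNA each pool held was not tested.

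**Figure D4:**
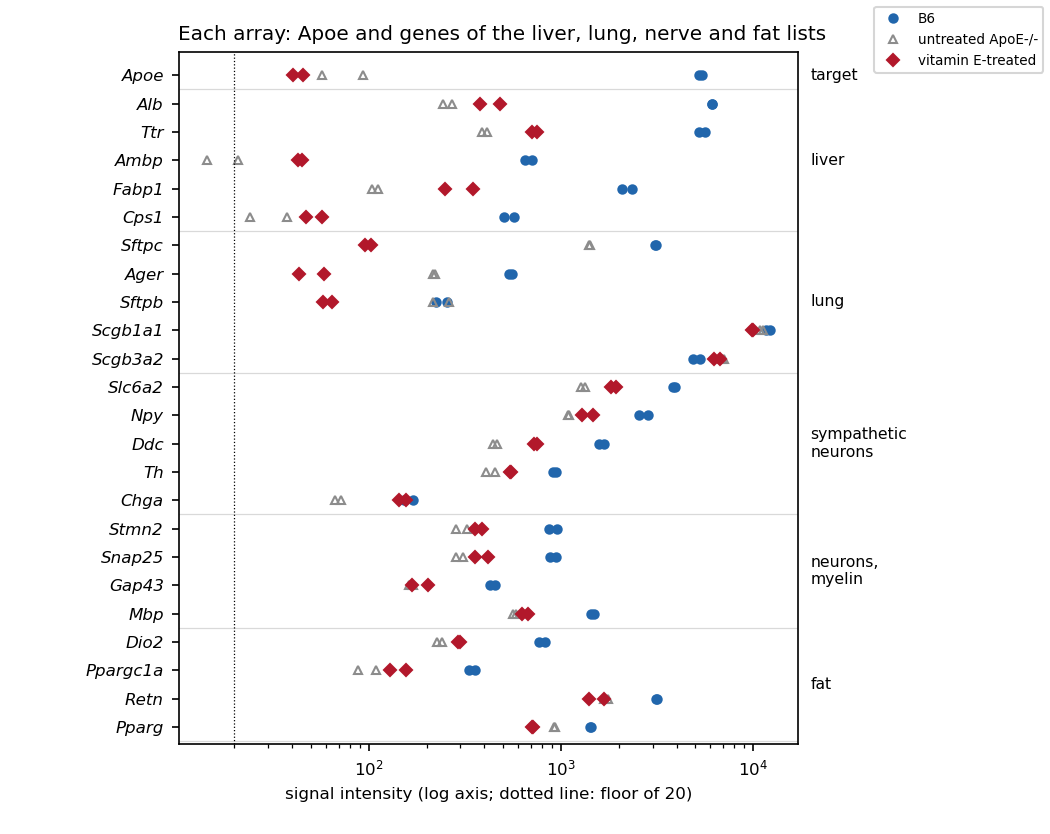
Signal intensity of each array (log axis) for Apoe, liver, lung, sympathetic, neuronal, myelin and fat genes that were mostly lower in vitamin E-treated ApoE-/- (red diamonds) than in B6 aortas (blue circles), with untreated ApoE-/- aortas as open triangles and the floor of 20 as a dotted line. Liver genes lie far below the B6 level in both ApoE-/- groups, Sftpc is lowest in the vitamin E group, and nerve genes lie below the B6 level by less.

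Sympathetic nerves reach the aorta through its adventitia and release noradrenaline. Of 15 genes of sympathetic neurons, 13 were lower and 0 higher than in B6 aortas (median -0.97, against -1.24 in untreated aortas). Slc6a2, the transporter that takes noradrenaline back up, had 1820.4 and 1940.2 against 3940.3 and 3818 (2.06-fold, adjusted p = 3.7e-05) and 1332 and 1272 on untreated arrays. Npy, the cotransmitter neuropeptide Y, had 1290.3 and 1474 against 2839 and 2559 (1.95-fold). Th, the rate-limiting enzyme of catecholamine synthesis, had 544 and 548 against 911 and 941 (1.70-fold), Ddc, the next enzyme, fell 2.20-fold, and Chgb, a protein of secretory granules, 2.39-fold. Chga, its relative, was an exception, with 143 and 156 against 169.7 and 153 (adjusted p = 0.57) and 71.7 and 66.9 in untreated aortas. Pnmt, which makes adrenaline, had 86.9 and 133 against 10.2 and 81.0 and was not called (adjusted p = 0.11). Vitamin E arrays were above untreated arrays in 8 of the 15 genes and below in 0. In 13 of the 15 genes both vitamin E arrays lay below both B6 arrays, a count without a background over all genes.

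Neuronal genes in general followed, with 15 of 20 lower and 2 higher (median -0.93, against -1.27 in untreated aortas). Stmn2, a regulator of axonal microtubules, had 357 and 391 against 952 and 867 (2.43-fold, adjusted p = 9.6e-05). Snap25, a protein of synaptic release, had 418 and 358 against 883 and 945 (2.36-fold), Gap43, a growth cone protein, fell 2.39-fold, Stmn3 1.87-fold and Uchl1, a neuronal deubiquitinase, 1.60-fold. The exceptions were Nsg2, with 715 and 740.1 against 478 and 463 (1.54-fold higher), and the synaptic vesicle gene Syp (1.37-fold higher). Between treated and untreated ApoE-/- aortas, 9 of the 20 genes were higher and 0 lower.

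Of 8 Schwann cell and myelin genes, 4 were lower and 1 higher (median -0.43). Mbp, myelin basic protein, had 676 and 627 against 1437 and 1486 (2.25-fold), Mal, a myelin lipid raft protein, fell 2.16-fold, and Pmp22, peripheral myelin protein, had 1477 and 1539.8 against 2027 and 2043 (1.35-fold lower). Cnp, a myelin enzyme, was not called on its brightest probe set (adjusted p = 0.091), and its other 2 probe sets were called higher. S100b, a calcium-binding protein of glia and also of fat and cartilage, was 1.45-fold higher.

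The genes that make up the aortic wall itself differed by much less. Of 19 contractile smooth muscle genes, 12 were lower and 1 higher (median -0.30, against -0.14 in untreated aortas). Cald1, caldesmon of the contractile filaments, had 2542 and 2650.4 against 4162 and 4246 (1.62-fold, adjusted p = 1.7e-04). Myh11, the smooth muscle myosin heavy chain, had 1295 and 1346 against 1605 and 1792 (1.28-fold, adjusted p = 0.0060). Acta2, smooth muscle actin, had 8791 and 9530.2 against 10846 and 11061 (1.20-fold, adjusted p = 0.034). Ppp1r14a, an inhibitor of myosin phosphatase, fell 1.55-fold, and Tpm2, a tropomyosin, had 4886 and 5626 against 5456 and 5374 (adjusted p = 0.67), while 2 of its 4 probe sets were called higher. Leaving out B6 replicate 1 or 2 left 8 or 7 lower genes. Against untreated aortas, 6 of the 19 genes were lower under vitamin E and 0 higher, among them Myocd, the master coactivator of these genes, with 154 and 158 on vitamin E against 210.5 and 237 on untreated arrays (adjusted p = 0.024).

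Of 22 endothelial genes, 4 were higher and 6 lower (median -0.01), shares near those over all genes. Vwf, the clotting protein of endothelial granules, had 403 and 411 against 828 and 788 (1.99-fold lower, adjusted p = 6.7e-05). Nos3, the endothelial nitric oxide synthase, had 370.4 and 435 against 549 and 567 (1.39-fold lower). Sox17, a factor of arterial endothelium, fell 1.90-fold and the phosphatase gene Ptprb 1.62-fold. Higher were the adhesion molecules Icam2 (1.46-fold) and Pecam1 (1.26-fold), endoglin (Eng, 1.37-fold) and Egfl7 (1.32-fold). Plvap, of fenestrated capillaries, had 740.3 and 814 against 695 and 718 (adjusted p = 0.17). Without B6 replicate 1 or 2, 2 or 1 were higher, and with arrays centred on their median over all probe sets, 1 was.

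Of 17 genes of adventitial fibroblasts, 8 were lower and 3 higher (median -0.18). Ogn, the small matrix proteoglycan osteoglycin, had 1261 and 1032 against 2353 and 2336 (2.06-fold lower), and Dcn, decorin, had 6053 and 6532 against 7380.1 and 7446 (1.18-fold lower, adjusted p = 0.031). Gsn, gelsolin, had 12799 and 15311 against 14789 and 15113 (adjusted p = 0.48). Mfap4, a microfibril protein, was higher, with 215 and 312 against 164 and 169 (1.56-fold), and its untreated arrays stood at 605 and 468. In fits lacking B6 replicate 1 or 2, 6 or 5 genes were lower and 0 higher.

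Collagens and elastic fibre genes went in both directions. Of 24 extracellular matrix genes, 10 were lower and 3 higher (median -0.16, against 0.09 in untreated aortas), and without either B6 array only 3 were lower. Col1a1, a chain of collagen I, had 731 and 715 against 407 and 374 on its brighter probe set (1.85-fold higher, adjusted p = 1.3e-04), with 1212 and 1163 in untreated aortas, and its other probe set was called lower. Col1a2, its partner chain, had 3389 and 3813 against 4648 and 4633 (1.29-fold lower). Col3a1, collagen III, had 3863 and 3987 against 4949.5 and 4693 (1.23-fold lower, adjusted p = 0.0088), Tnc, tenascin C of remodelled matrix, rose 1.90-fold, and Eln, elastin, 1.31-fold. Bgn, biglycan, had 3722 and 4163 against 3910.5 and 3774 (adjusted p = 0.73), and 1 of its 3 probe sets was called higher. In 11 of the 24 genes vitamin E arrays were lower than untreated arrays, and in 0 higher.

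Of 4 cartilage and calcification genes, 2 were higher (median 0.41). Comp, a cartilage matrix protein, had 291 and 347 against 171 and 160.2 (1.92-fold) and Chad, chondroadherin, 439 and 419.9 against 236 and 256 (1.75-fold), and untreated arrays were higher for both, at 479 and 541 and at 612 and 581. Mgp, the matrix protein that holds back calcification, had 4170.4 and 5191 against 4681 and 4731 (adjusted p = 0.91).

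Of 10 vasoactive and renin-angiotensin genes, 2 were higher and 4 lower (median -0.27). The thromboxane receptor gene Tbxa2r had 375 and 417 against 169 and 168 (2.35-fold), and Ace, angiotensin-converting enzyme, had 286 and 192 against 112 and 136 (1.90-fold, adjusted p = 0.049). The angiotensin receptor gene Agtr1a fell 1.48-fold and Gucy1a1, a subunit of the nitric oxide receptor, had 339 and 308 against 536 and 529 (1.65-fold lower), while untreated aortas held 538 and 520.3. Ece1, which activates endothelin, was 1.20-fold lower on its brighter probe set (log2 fold change -0.27) and higher on its other one (0.47, adjusted p = 0.0078), so its direction is uncertain, and Ptgis, prostacyclin synthase, had 1049 and 1287 against 1365 and 1412 (adjusted p = 0.067). Without B6 replicate 1, 2 of these genes were lower.

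**Figure D5:**
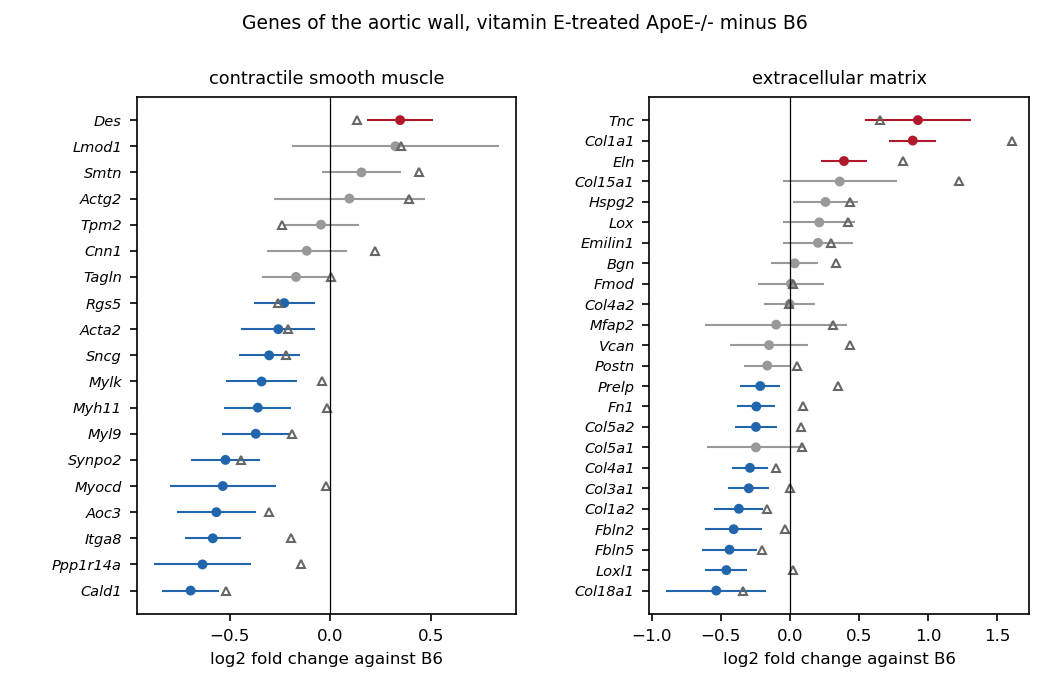
Log2 fold change with its 95% confidence interval for 19 contractile smooth muscle genes and 24 extracellular matrix genes in vitamin E-treated ApoE-/- minus B6 aortas, coloured red where called higher, blue where called lower and grey where not called, with untreated ApoE-/- minus B6 as open triangles. Most genes lie near 0, and Tnc and Col1a1 stand highest.

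Of 26 skeletal muscle genes, 12 were above the B6 level and 1 below it (median 0.25, against -0.98 in untreated aortas). Casq1, the calcium store protein of fast fibres, had 1879 and 2197 against 815 and 793 (2.53-fold, adjusted p = 3.8e-05), and untreated arrays had 713 and 727. Pvalb, parvalbumin, had 3605 and 3969 against 1869 and 1819 (2.05-fold). Acta1, skeletal actin, had 9730.2 and 13264 against 10929 and 11135 (adjusted p = 0.82), and Tnnc2, fast troponin C, had 7669 and 9492 against 7306 and 7323 (adjusted p = 0.12). Summed over the list, the signal intensity was 84898 and 97060 on vitamin E arrays, 74879 and 73903 on B6 arrays and 43099 and 42836 on untreated arrays.

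Of 22 cardiac muscle genes, 7 were higher and 3 lower (median 0.08, against 1.18 in untreated aortas). Nppb, the natriuretic peptide BNP, had 226 and 249 against 132 and 108 (1.98-fold), and Mybpc3, cardiac myosin-binding protein, rose as well (log2 fold change 0.59). Myh6, the atrial myosin heavy chain, had 5728 and 5847 against 6043 and 6542 (adjusted p = 0.22) and Myl7, an atrial light chain, 5163 and 6384 against 5447 and 5096 (adjusted p = 0.38). Myl2, a ventricular light chain, was 1.35-fold lower. Summed over the list, the vitamin E arrays gave 46830 and 51026, the B6 arrays 46142 and 45238 and the untreated arrays 85240 and 85475. Without B6 replicate 2, 2 cardiac genes were higher, and with arrays centred on the median over all probe sets the list median turned to -0.07.

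Among genes of the differentiated layers of stratified epithelium, 6 of 19 were higher and 2 lower (median 0.15, against -1.25 in untreated aortas). Tgm1, a transglutaminase of the cornified envelope, had 285 and 252 against 165 and 175 (1.58-fold). Krt13, an oesophageal keratin, had 8274 and 7952 against 6545 and 7019.6 (1.20-fold, adjusted p = 0.021), and its partner Krt4 had 11978 and 15510.0 against 14073 and 13934 (adjusted p = 0.82), with its second probe set called higher. Sprr1b, an envelope precursor, was 1.73-fold lower. Without B6 replicate 1 or 2, 2 genes were higher in each case.

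Basal layer genes stood more clearly above the B6 level, with 9 of 14 higher and 0 lower (median 0.58, against -0.35 in untreated aortas). Krt14, a keratin of basal cells, had 497 and 548 against 206 and 274 (2.20-fold, adjusted p = 0.0014), and 193 and 161 in untreated aortas. Pkp3, a desmosomal plakophilin, had 539 and 563 against 256 and 213 (2.36-fold), while Dsp, desmoplakin, and Perp, a desmosomal membrane protein, were not called on their brightest probe sets (adjusted p = 0.16 and 0.099), and a second one of Dsp was called higher. Skeletal muscle and epithelium genes moved together across the groups, and how much of either tissue each pool held was not tested.

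The labels describe the aortas as cleared of fat, but fat genes gave high signal intensities on every array. Fabp4, the fatty acid carrier of adipocytes, had 13594 and 16142 against 16234 and 15942 (adjusted p = 0.38), and Cidea, of brown fat, 7453 and 9042 against 9516 and 9220.2 (adjusted p = 0.16). Of 17 adipocyte genes, 7 were lower and 2 higher (median -0.22). Retn, resistin, had 1403 and 1684 against 3121 and 3147 (2.04-fold lower, adjusted p = 1.7e-04), and Pparg, the master factor of fat cells, had 720.0 and 712 against 1431 and 1412 (1.99-fold lower) and 925 and 930.1 in untreated aortas. Adiponectin (Adipoq) was 1.53-fold lower, whereas leptin (Lep) was 1.38-fold higher. Car3, carbonic anhydrase of fat and muscle, was not called on its brightest probe set (adjusted p = 0.14), whereas its other 3 probe sets were called lower, with log2 fold changes of -0.52 to -1.37. Likewise, 2 of the 4 probe sets of Fabp4 were called lower. Without vitamin E replicate 2, 12 adipocyte genes were lower.

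Of 12 brown adipocyte genes, 5 were lower and 0 higher (median -0.17). Dio2, which activates thyroid hormone in cold-exposed fat, had 293 and 300.1 against 831 and 769 (2.69-fold, adjusted p = 3.4e-05). Ppargc1a, a coactivator of mitochondrial genes, had 129 and 156 against 359 and 331 (2.43-fold), and untreated arrays were low as well at 109 and 88.4. Ucp1, the uncoupling protein that makes heat, had 6371 and 7911 against 7715 and 7707 (adjusted p = 0.39), and Cox8b was not called (adjusted p = 0.24). Without vitamin E replicate 2, 8 of the 12 were lower.

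Lipid synthesis genes were lower in part. Of 15 genes of fatty acid synthesis, 9 were lower and 1 higher (median -0.32, against 0.04 in untreated aortas), and without B6 replicate 1, 4 were lower. Elovl6, which lengthens saturated fatty acids, had 3569 and 3761 against 6162 and 6032 (1.66-fold, adjusted p = 1.8e-04) and 5425 and 5522 in untreated aortas, and Elovl5, for polyunsaturated ones, fell 1.61-fold. Srebf1, the factor that drives the pathway, was 1.46-fold lower. Fasn and Scd1, with 10899 and 14548 against 12949 and 13289 and 11491 and 16891 against 15057 and 14795, overlapped between groups, and a second probe set of Scd1 was called higher. The one gene that rose was Scd2, the desaturase of many tissues outside the liver (log2 fold change 0.58).

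Of 19 sterol synthesis genes, 6 were lower and 2 higher (median -0.12). Fdft1, squalene synthase, had 1559 and 1676 against 3603 and 3537 (2.21-fold lower, adjusted p = 3.7e-05), with 1578 and 1448 in untreated aortas. Hmgcs1, an early enzyme of the pathway, had 3679.7 and 3802 against 5030.3 and 4885 (1.33-fold lower). Srebf2, its main transcription factor, was 1.98-fold higher, with 386 and 348 against 195 and 176. With arrays centred on the median over all probe sets, 10 were lower.

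Antioxidant enzymes of vitamin E-treated aortas gave no general rise over B6 aortas, with 7 of 20 lower and 1 higher (median -0.10, and -0.11 in untreated aortas). The gene that rose was Sod3, the extracellular superoxide dismutase of the vessel wall, with 987 and 1027 against 468 and 482 (2.12-fold, adjusted p = 2.8e-05). Untreated arrays were higher, at 1631 and 1595 (log2 fold change of treated against untreated -0.68, adjusted p = 7.3e-04). Gclm and Gclc, the subunits that make glutathione, were 1.49- and 1.47-fold lower, and Gpx3, the plasma glutathione peroxidase, had 5135 and 6191 against 8539 and 8205 (1.48-fold lower). Sod2, the mitochondrial dismutase, was 1.36-fold lower, and catalase (Cat) 1.33-fold. Gpx4, which reduces lipid peroxides in membranes, had 7406 and 9103 against 9453 and 9482 (adjusted p = 0.14), and Hmox1 and Nqo1, targets of the antioxidant factor Nrf2, were not called (adjusted p = 0.35 and 0.18). With arrays centred on the median over all probe sets, 11 of the 20 were lower.

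Of 17 glutathione S-transferases, 8 were lower and 0 higher (median -0.22), and without either B6 array 5 were lower. Gsta3 had 86.8 and 88.5 against 179 and 186 (2.08-fold), Gstz1, of tyrosine breakdown, 578 and 575 against 962 and 879.9 (1.60-fold), and Mgst1, a microsomal form, 5734 and 5942 against 8209.6 and 8795 (1.46-fold). Gstp1, a cytosolic form, was not called, with 5927 and 6069 against 6311 and 6198 (adjusted p = 0.47).

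Genes that bind or carry vitamin E were partly lower, although 4 of the 7 tested reached 100 only in B6 aortas. In all, 5 were lower and 0 higher (median -0.61, against -0.28 in untreated aortas). Among the 3 genes with a mean of at least 100 in both groups, 1 was lower and the median turned to 0.19. Ttpa, the tocopherol transfer protein of the liver, had 64.0 and 81.7 against 183 and 229 (2.83-fold, adjusted p = 8.4e-04), and 64.4 and 61.1 in untreated aortas. Afm, afamin, a vitamin E-binding plasma protein of the liver, had 24.6 and 11.6 against 102 and 122 (5.04-fold). Sec14l3, a relative of the tocopherol-associated protein, had 1189 and 1195 against 1454 and 1336 (1.17-fold lower, adjusted p = 0.027). Pltp, the phospholipid transfer protein, had 3186 and 2798 against 2579.6 and 2560.0 (adjusted p = 0.051), and Scarb1, a lipoprotein receptor, was not called (adjusted p = 0.084). A second probe set of Pltp was called higher, and 2 of the 3 of Scarb1 were called lower. Without either B6 array 3 of the 7 were lower. Liver genes fell with Ttpa and Afm, as given above, and their part was not tested. None of the 7 rose under treatment relative to untreated ApoE-/- aortas, and Sec14l3 was lower there.

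Of 23 genes of oxidative phosphorylation, 10 were lower and 1 higher (median -0.20, and -0.23 in untreated aortas). Atp5c1, a subunit of ATP synthase, had 6167 and 6838 against 8651 and 9074 (1.36-fold lower), and Sdhc, a subunit of complex II, had 2975 and 2836 against 1920.5 and 1988 (1.49-fold higher). Uqcrb and Cox4i1, of complexes III and IV, were not called (adjusted p = 0.29 and 0.38). This list depended on single arrays, with 4 lower without either B6 array, 5 without either untreated array and 19 without vitamin E replicate 2. Ribosomal protein genes stayed near the B6 level, with 1 of 16 higher, Rps19 (1.21-fold), and 0 lower (median 0.09), but 12 were higher without vitamin E replicate 1. Rps14 and Rps18 overlapped between groups, and Rpl37 was not called either (adjusted p = 0.32).

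Heat shock genes were also close to the B6 level. Of 14, Stip1, a cochaperone, was higher (603 and 604 against 358 and 338, 1.74-fold), Hspa1a and Hspe1 were lower (1.43- and 1.22-fold), and Hspa8 and Hspb1 were not called (median 0.02). In the endoplasmic reticulum stress list, 4 of 15 were higher and 3 lower (median 0.08), shares near those over all genes. Pdia4, a folding enzyme, had 270.2 and 259.6 against 145 and 144 (1.83-fold), with 452 and 440.4 in untreated aortas, and Sdf2l1, a chaperone partner, rose 1.64-fold. The central chaperones Hspa5 and Calr were not called on their brightest probe sets (adjusted p = 0.21 and 0.46), but 2 of the 3 probe sets of Calr were called higher (log2 fold changes 0.41 and 0.48).

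Immediate early genes, which respond within minutes to stimuli and to handling of tissue, were higher in 10 of 17 cases and lower in 1 (median 0.33, against 0.23 in untreated aortas). Fos had 756 and 704 against 501 and 446 (1.54-fold, adjusted p = 0.0013), Btg2, a brake on proliferation, 1588 and 1623 against 959.9 and 877 (1.75-fold), Egr1 2031 and 2558 against 1774 and 1709.6 (1.31-fold), and Dusp1, a phosphatase of stress kinases, was 1.18-fold higher. With arrays centred on the median over all probe sets, 4 were higher.

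Circadian clock genes were lower in 6 and higher in 3 of 14 cases (median -0.45, against -0.15 in untreated aortas). Arntl, which encodes the clock activator BMAL1, had 194 and 208 against 84.2 and 78.2 (2.48-fold higher, adjusted p = 0.0032). Dbp, an output gene of the clock, had 1943 and 1684 against 3426 and 3246 (1.84-fold lower, adjusted p = 2.1e-04), and Per3, a clock repressor, 111 and 126 against 223 and 192 (1.75-fold lower). Nr1d2, a nuclear receptor that represses Arntl, was lower too (log2 fold change -0.49). Without vitamin E replicate 1 or either B6 array, 1 clock gene was higher. The time of day of dissection is not given in the sources used here.

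Of 11 neighbours of Apoe on chromosome 7, 3 were higher and 3 lower (median 0.12), shares near those over all genes. The lower ones were the apolipoprotein genes Apoc1, with 386 and 355 against 2745 and 2501 (7.09-fold, adjusted p = 1.3e-06), Apoc4 (5.14-fold) and Apoc2 (3.83-fold), which the liver also expresses. Apoc1 had 371 and 394 in untreated aortas. Higher were Tomm40, a mitochondrial import pore (483 and 466 against 298 and 267, 1.68-fold), Bcl3, a regulator of NF-kappaB (1.66-fold), and Clptm1 (1.32-fold).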

How the data were processed

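Aortic RNA of vitamin E-treated ApoE-/-, untreated ApoE-/- and B6 mice was measured on Affymetrix MG430 2.0 arrays, 2 per group with 3 aortas pooled per array. The authors computed signal intensities with GCOS, scaled each array to a target value of 200 and deposited them as linear intensities, 1 per probe set. Scaling to a common target sets differences relative to the whole array, so a shift common to all transcripts would not be seen. The number of arrays limits the precision.

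Groups were taken from the labels. After a floor of 20 was applied, log2 values were taken. Every probe set whose mean reached 100 in vitamin E-treated or B6 aortas was tested with limma 3.58.1 in R 4.3.3. The linear model held all 6 arrays and an intensity trend, with residual degrees of freedom of 3 and a prior of 4.48, and contrasted vitamin E-treated ApoE-/- with B6. Adjusted p values use the Benjamini-Hochberg method over all 17523 probe sets, and values under 0.05 are calls. Fold changes are on the scale of intensities with the floor of 20, and against a group under 20 on both arrays they are lower bounds. Of 45101 probe sets, 64 are array controls, 34945 had 1 gene symbol, 932 several and 9160 none in the platform annotation, and 34741 with 1 symbol matched RefSeq GRCm38.p6. A gene was represented by its brightest probe set. In 132 of 3721 genes with several probe sets, probe sets were called in opposite directions.

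The members and the 43 lists were chosen with earlier results of these data known, so the lists are described by counts and medians and not tested. Of their 810 entries, 645 were tested, 70 had no probe set and 95 lay below the filter. The genes named are the 15 largest rises and 15 largest falls among calls with all 4 arrays at or above 20 and groups that do not overlap (RIKEN, Gm, predicted and accession-only names left out), the 5 brightest in each direction with the lower group under 20, and in each list the 2 brightest genes and the 2 with the largest change. Further list members named were chosen after their values were seen. The procedure was tested on simulated data.

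Whether equal replicate numbers pair the arrays was checked. The deviations of equally numbered vitamin E and B6 arrays from their group means correlated at -0.098 across probe sets, so no pairing was assumed. The alternatives were quantile normalization, median centring, floors of 50 and none, other filters, moderation without trend, a fit of 4 arrays, the replicate block, 1 probe set per gene, each array left out and the methods' t-test. Centring on the median over all probe sets was chosen after seeing the data.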

Additional observations from a re-analysis of the deposited data

How the results depend on the processing

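With a change of setting, the 7360 calls became 4464 without a filter on low values and 4750 with 1 probe set per gene, and they ranged from 4392 to 7480 when 1 array was left out. The low end came without a B6 array, with 4392 calls without replicate 1 and 4447 without replicate 2, of which 4285 and 4350 were among the 7360. The share of higher calls, 53.0%, ranged from 50.7 to 56.5% with 1 array left out and became 31.3% when arrays were centred on their median over all probe sets, which moved the median log2 fold change from 0.016 to -0.137, so the balance of higher and lower depends on the scaling. At the methods' thresholds (p of at most 0.01 and at least 2-fold), limma gave 1131 of the 17523 probe sets. It gave 509 of the 15344 with a mean of at least 100 in both groups. With 1 probe set per gene, it gave 652 of 10479. With log2 intensities 582 passed by the methods' t-test, with linear ones 585, and after Benjamini-Hochberg adjustment 33 and 37 of at least 2-fold remained. With the replicate block, the paired fit gave 7013 calls, a share of 53.6% and 1128 at the methods' thresholds.

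Of the 191 genes that the rule names, 38 lost their call in at least 1 alternative, 31 gained one and 5 were called in the other direction in 1. The last, none of them called with all arrays, had log2 fold changes of 0.15 (Krt4), 0.18 (Scd1), 0.14 (Mgp), 0.27 (Acta1) and 0.19 (Rps14) without vitamin E replicate 1 and of -0.23, -0.38, -0.17, -0.18 and -0.15 without replicate 2, and the cause was not tested. Among the largest changes, Nrip2 lost its call without a filter (adjusted p = 0.058) and Slc27a5 without a floor (adjusted p = 0.053). Calls of under 1.5-fold, such as Acta2, Dcn, Lpl, Krt13, Scgb1a1, Egr1 and Rps19, were lost in some of these fits. Arrays of pools show no spread among single mice.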
